A study of Homo sapiens with 6 samples.

Results

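The genes described are 10 that encode surface ligands read by natural killer (NK) cells and T cells, namely NCR3LG1, MICA, MICB, ULBP1, ULBP2, ULBP3, PVR, NECTIN2, CD274 and CD276. They were chosen by name with earlier results of these data known, as the rows of the deposited count table that carry these symbols. They are 10 of the 60664 genes in that table. Their transcripts were compared between 3 RNA-seq libraries labelled as HCT8 cells, an established human colorectal cancer line, given a KDM4A overexpression plasmid (genotype KDM4A-overexpressing) and 3 that carry the same HCT8 label and received a control plasmid (genotype WT). All 6 libraries carry the same growth medium, cell line and batch number in their labels, and the study's title asks which signalling pathways KDM4A, a demethylase of histone H3, acts on in colorectal cancer. The time after transfection and the insert carried by the plasmid were not stated in the labels. Separate cultures are not recorded for the 3 libraries of a group either, so each p-value refers to the spread between libraries, which may be technical.

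NK cells weigh signals from activating and inhibitory receptors before they kill a target cell. NCR3LG1 (also called B7-H6) binds the activating receptor NKp30. MICA, MICB and the ULBP proteins are stress-induced relatives of MHC class I that bind the activating receptor NKG2D. PVR and NECTIN2 bind the activating receptor DNAM-1 and the inhibitory receptor TIGIT, so that their effect depends on which receptor the immune cell carries. CD274 (PD-L1) restrains T cells through PD-1, and CD276 (B7-H3) is a related B7 protein that is abundant on many tumours.

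Of the 10 genes, all passed the filter on low counts, and 8 were higher and 1 was lower in the KDM4A plasmid libraries, while PVR did not pass. The test was edgeR's quasi-likelihood test over 17147 genes, with a threshold of 0.05 on the p-value after Benjamini-Hochberg adjustment. Across all tested genes 40.0% were called higher and 38.6% lower, 78.6% in either direction. The share of the members that was called therefore lies near the background, while 8 of 10 in the upward direction stands beside 40.0%. With GC and length trends removed, 5 of 10 were higher beside 33.8% of all tested genes. The members were chosen with earlier results of these data known, so these counts are descriptions and an excess was not tested. The libraries of the groups did not overlap in 9 of the 10 genes (8 higher and 1 lower), and in 79.7% of all tested genes (40.4% higher and 39.3% lower). By at least 2-fold, 2 members were higher (NECTIN2 and CD274), against 16.4% of all genes, and 1 was lower (NCR3LG1), against 13.6%. The median log2 fold change of the members was 0.55, and that of all tested genes was 0.0258.

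The libraries held 14284240 to 23905980 counts. KDM4A itself was at 151.9, 156.5 and 159.7 CPM (the usual depth-scaled read count) in the KDM4A plasmid libraries, against 42.8, 45.8 and 45.2 CPM in the control plasmid libraries. Its antisense partner KDM4A-AS1 overlaps it, and strand was not stated. The libraries of different groups stood far apart (Pearson r across genes of 0.895 to 0.906, against 0.993 to 0.995 within groups). Of 20 markers of colorectal epithelium, 15 could be tested. All 15 were higher in the KDM4A plasmid libraries, beside 40.0% higher and 38.6% lower of all tested genes. The median log2 fold change of the tested markers was 4.09. Their summed level was 3622.7 to 3891.9 CPM in the KDM4A plasmid libraries, against 265.7 to 282.3 CPM in the control plasmid libraries. The highest of them, the keratins KRT8 and KRT18 and the adhesion molecule EPCAM, averaged 1668.1, 1013.2 and 330.0 CPM in the KDM4A plasmid libraries, against 119.4, 61.6 and 18.7 CPM in the control plasmid libraries. The intestinal markers KRT20, TFF3, CEACAM5 and GPA33 were near 0 in both groups, with at most 11 counts summed over the libraries of either. IRS4, an adaptor of the insulin receptor, averaged 322.6 ± 7.89 CPM in the KDM4A plasmid libraries and 2147.8 ± 201.3 CPM in the control plasmid libraries (SD, n = 3 each). The labelled cell line is the same for both groups while these levels differ, and the part of that difference in the results on the ligands was not tested. Whether the libraries of both groups come from the same line was not tested either, and if they did not, the line and the plasmid cannot be told apart in any difference given here. In such bulk libraries, fewer cells of a type and less RNA per cell cannot be told apart.

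**Figure D1:**
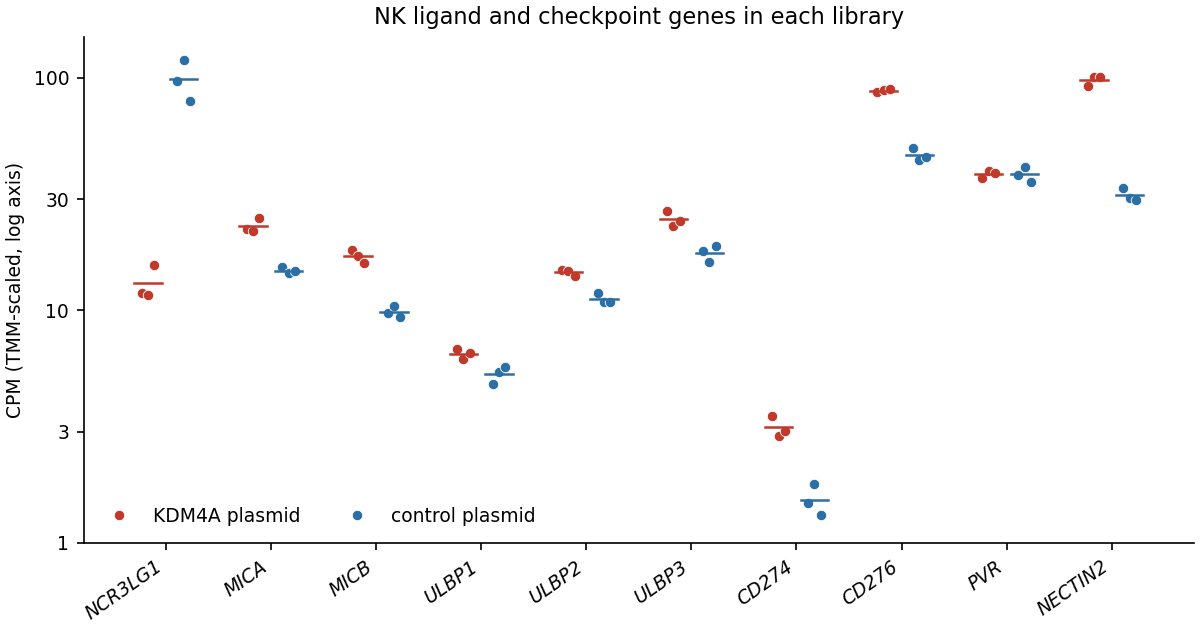
CPM of each gene (log axis) in every library, with the KDM4A plasmid libraries in red at the left of each pair and the control plasmid libraries in blue at the right; points are libraries and bars are means of 3. NCR3LG1 stands at 11.6 to 15.7 CPM in the KDM4A plasmid libraries and at 79.3 to 119.8 CPM in the control plasmid libraries, 8 other genes lie higher in the KDM4A plasmid libraries on this scale (on the TPM scale ULBP1, and with GC and length trends removed MICA, do not), and the points of PVR overlap.

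NCR3LG1, the NKp30 ligand, showed the largest change of the 10 genes and was the only one called lower, apart from PVR once GC and length trends were removed. Levels are given as CPM, the count over the TMM-scaled library total. NCR3LG1 (ENSG00000188211, chromosome 11, 17351800 to 17377341, plus strand, GRCh38.p13) was at 11.9, 11.6 and 15.7 CPM in the KDM4A plasmid libraries, against 97.1, 119.8 and 79.3 CPM in the control plasmid libraries. Every KDM4A plasmid library was lower than every control plasmid library, and the control libraries were themselves spread, with replicate 2 highest. The means were 13.1 ± 2.29 and 98.7 ± 20.3 CPM (SD, n = 3 each), a log2 fold change of -2.94 with an SE of 0.20 (95% interval -3.32 to -2.55, adjusted p = 6.8e-06 by edgeR), which is a 7.66-fold lower level. Only 59 of the 17147 tested genes had a lower log2 fold change. Leaving out any 1 library moved the value between -3.09 and -2.78. None of the 6419 distinct 50-base words in its annotated transcripts occurred in transcripts of another gene. The potassium channel gene KCNJ11 overlaps it on the opposite strand and had 190 counts in the KDM4A plasmid group and 205 in the control plasmid group, against 702 and 6078 for NCR3LG1.

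The start of NCR3LG1 is shown because it fell most, and that of NECTIN2 because its log2 fold change of 1.64 was the highest (with GC and length trends removed, CD274 at 1.28 was above NECTIN2 at 0.97). Each run covers 250 bases before to 50 bases after the transcription start in RefSeq (GRCh38.p14, written 5′ to 3′ on the gene's strand), and capitals mark matches on either strand to the motifs searched.
NCR3LG1, chr11:17351550-17351849, plus strand: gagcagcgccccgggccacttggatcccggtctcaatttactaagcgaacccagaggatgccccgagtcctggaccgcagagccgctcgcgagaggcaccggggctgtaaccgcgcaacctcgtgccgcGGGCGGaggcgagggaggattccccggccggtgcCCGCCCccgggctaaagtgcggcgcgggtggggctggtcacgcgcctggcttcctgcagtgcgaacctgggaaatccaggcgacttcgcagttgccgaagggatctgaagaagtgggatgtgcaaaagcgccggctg
NECTIN2, chr19:44846047-44846346, plus strand: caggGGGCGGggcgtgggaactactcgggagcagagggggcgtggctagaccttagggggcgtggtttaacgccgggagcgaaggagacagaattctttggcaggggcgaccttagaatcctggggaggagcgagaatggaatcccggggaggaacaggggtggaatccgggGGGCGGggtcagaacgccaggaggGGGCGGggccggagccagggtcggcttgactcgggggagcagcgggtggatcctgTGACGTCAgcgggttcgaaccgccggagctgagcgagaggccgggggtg
The motifs were the GC box GGGCGG bound by SP1-type factors (found in 45.0% of 35116 promoters of the same length), the CCAAT box CCAAT (34.6%), the E-box CACGTG bound by MYC and related factors (7.26%), the cyclic AMP element TGACGTCA (1.85%), the AP-1 site TGANTCA (7.71%), the STAT site TTCNNNGAA (7.66%), the heat shock pair GAANNTTC (6.77%) and the IRF element, which is GAAA, NN and GAAA in a row (3.57%). The NCR3LG1 window held 2 GC boxes, 121 and 87 bases before the start, and no match to the other motifs. The NECTIN2 window held 3 GC boxes and was the only 1 of the 10 with a cyclic AMP element, which begins at base 2 of the transcript. A match describes these letters and says nothing of whether a factor binds there.

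By its profile over the 6 libraries, NCR3LG1 lay nearest to TENM1, IRS4 and TET1, at Euclidean distances of 0.400, 0.497 and 0.579 on centred log2 CPM among 9706 protein-coding genes averaging at least 10 CPM. TENM1 was at 3.95, 4.74 and 5.29 CPM in the KDM4A plasmid libraries, against 39.4, 46.2 and 36.4 CPM in the control plasmid libraries. IRS4 was at 315.2 to 330.9 CPM in the KDM4A plasmid libraries, against 1939.3 to 2341.0 CPM in the control plasmid libraries. TET1, an enzyme that oxidises methylated cytosine, averaged 16.2 ± 0.71 CPM in the KDM4A plasmid libraries and 100.2 ± 10.4 CPM in the control plasmid libraries (SD, n = 3 each). The likeness rests on 6 libraries in 2 separate groups and mostly repeats the step between the groups.

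The 5 NKG2D ligands were each higher in the KDM4A plasmid libraries, by less than 2-fold, although MICA stood at -0.00024 with GC and length trends removed and ULBP1 at -0.04 on the TPM scale. MICB (chromosome 6, 31494881 to 31511124) was at 18.2, 17.1 and 15.9 CPM in the KDM4A plasmid libraries, against 9.76, 10.4 and 9.38 CPM in the control plasmid libraries. The groups did not overlap, and the log2 fold change was 0.80 (SE 0.09, 95% interval 0.62 to 0.98, adjusted p = 3.3e-07 by edgeR). MICA (chromosome 6, 31399784 to 31415315) was at 22.4, 21.9 and 24.9 CPM in the KDM4A plasmid libraries, against 15.3, 14.4 and 14.7 CPM in the control plasmid libraries. Its groups did not overlap either, at a log2 fold change of 0.64 with an SE of 0.08 (adjusted p = 1.2e-06 by edgeR). The ratio of MICB to MICA per length was 0.461, 0.443 and 0.36 in the KDM4A plasmid libraries, against 0.362, 0.411 and 0.361 in the control plasmid libraries, and overlapped. The pair shares 45 of its 50-base words, 1.89% of those of MICA, so few reads of that length could be confused between them.

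Parts of the MICA and MICB promoters are shown because both genes rose in the main fit and both windows hold the same motifs. With GC and length trends removed, MICA stood at -0.00024. The runs cover 150 to 51 bases before the RefSeq start (GRCh38.p14). Both runs lie inside the gene spans given above, which begin further upstream, so the counted transcripts may also start elsewhere. Capitals mark, from the left, the heat shock pair, then the GC box and the CCAAT boxes, which are read on the opposite strand.
MICA, chr6:31403445-31403544, plus strand: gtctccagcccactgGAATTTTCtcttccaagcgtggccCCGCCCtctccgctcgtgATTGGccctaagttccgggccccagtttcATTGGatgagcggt
MICB, chr6:31497995-31498094, plus strand: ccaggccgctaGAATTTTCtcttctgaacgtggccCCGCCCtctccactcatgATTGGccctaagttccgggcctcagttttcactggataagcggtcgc
Aligned on the heat shock pair without gaps, 75 of 96 bases were identical. MICA and MICB were the only members whose window held that pair. MICA has 2 CCAAT matches and MICB has 1. Among the factors of heat shock, HSF1 rose and HSPA1A, a chaperone gene that it drives, fell, with log2 fold changes of 0.76 and -0.74. With GC and length trends removed, HSF1 stood at -0.14 and HSPA1A at -1.46. Both genes were named after their values were seen, and reads of HSPA1A may be split with its near-identical copy HSPA1B.

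The ULBP genes lie in a cluster on the long arm of chromosome 6 and had log2 fold changes of 0.28 to 0.47. ULBP3 (150061053 to 150069121, minus strand) was at 26.7, 23.0 and 24.2 CPM in the KDM4A plasmid libraries, against 17.9, 16.2 and 18.9 CPM in the control plasmid libraries. Its log2 fold change was 0.47 (SE 0.08, adjusted p = 5.8e-05 by edgeR). ULBP2 (149942014 to 149949235) was at 14.9, 14.7 and 14.0 CPM in the KDM4A plasmid libraries, against 11.8, 10.8 and 10.8 CPM in the control plasmid libraries. All KDM4A plasmid libraries were higher for both genes, and the log2 fold change of ULBP2 was 0.39 (SE 0.09, adjusted p = 6.4e-04 by edgeR). Both calls were lost with GC and length trends removed, at 0.03 for ULBP3 and 0.05 for ULBP2 (adjusted p = 0.741 and 0.597 by edgeR). ULBP1 (149963943 to 149973715) was at 6.80, 6.18 and 6.55 CPM in the KDM4A plasmid libraries, against 4.80, 5.43 and 5.70 CPM in the control plasmid libraries. Its log2 fold change of 0.28 (SE 0.12) passed narrowly (adjusted p = 0.0375 by edgeR), the call was lost with DESeq2 (adjusted p = 0.139) and without any 1 of 4 libraries (adjusted p up to 0.164), and its 95% interval was 0.05 to 0.52.

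Reads of the ULBP cluster can be split between copies. Of the 50-base words of ULBP2, 32.2% also occur in other genes, 29.4% in RAET1L alone, and 12.4% of those of ULBP3 occur in the pseudogene RAET1K. RAET1L and RAET1G, which also encode NKG2D ligands, were both higher, as was RAET1E (RAET1G and RAET1E were named after their values were seen). RAET1L was at 4.01, 3.64 and 4.16 CPM in the KDM4A plasmid libraries, against 0.0528, 0.148 and 0.131 CPM in the control plasmid libraries. Its control level rests on 7 counts, and its log2 fold change was 5.04 (SE 0.29, adjusted p = 3.9e-11 by edgeR). RAET1E had 41 counts in the KDM4A plasmid group and 0 in the control plasmid group, at least 14.9-fold higher against a floor of 3 counts over the group, which covers counting error only. RAET1G averaged 1.19 CPM in the KDM4A plasmid group and 0.568 CPM in the control plasmid group.

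The DNAM-1 and TIGIT ligands PVR and NECTIN2, 2 nectin-family genes on the long arm of chromosome 19, had different values, as NECTIN2 rose and PVR did not pass. NECTIN2 (44846175 to 44889223) was at 92.3, 100.4 and 100.4 CPM in the KDM4A plasmid libraries, against 33.7, 30.4 and 29.9 CPM in the control plasmid libraries. It was higher in all 3 KDM4A plasmid libraries, a log2 fold change of 1.64 with an SE of 0.06 (95% interval 1.52 to 1.76, adjusted p = 1.6e-13 by edgeR), and 1605 of the tested genes had a larger one. PVR (44643798 to 44666162) was at 36.9, 39.7 and 38.8 CPM in the KDM4A plasmid libraries, against 38.3, 41.3 and 35.5 CPM in the control plasmid libraries. The groups overlapped. The log2 fold change was 0.01 (SE 0.07, adjusted p = 0.938 by edgeR), and its 95% interval of -0.13 to 0.14 leaves room for small changes either way. With GC and length trends removed, PVR was at -0.20 and called lower, where the median of all tested genes was -0.11. The ratio of NECTIN2 to PVR per length, which a scaling factor per library cannot alter, was 5.38, 5.45 and 5.56 in the KDM4A plasmid libraries, against 1.90, 1.59 and 1.82 in the control plasmid libraries (exact two-sided permutation p = 0.1, the smallest that 3 against 3 allows). CEACAM19 overlaps PVR on the same strand and CEACAM16-AS1 on the other, with 217 and 114 counts in the KDM4A plasmid group and 541 and 22 in the control plasmid group, against 2124 and 2374 for PVR.

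Both B7 checkpoint genes were higher in the KDM4A plasmid libraries. CD276 (chromosome 15, 73683966 to 73714514, plus strand) was at 86.8, 88.2 and 89.2 CPM in the KDM4A plasmid libraries, against 50, 44.5 and 45.5 CPM in the control plasmid libraries. The groups lay well apart, at a log2 fold change of 0.92 with an SE of 0.06 (adjusted p = 1.3e-10 by edgeR). CD274 (chromosome 9, 5450503 to 5470566, plus strand) was at 3.49, 2.88 and 3.03 CPM in the KDM4A plasmid libraries, against 1.48, 1.78 and 1.31 CPM in the control plasmid libraries. It was the lowest of the 10 genes, with 171 and 94 counts in all, and its log2 fold change of 1.04 had a wide 95% interval of 0.68 to 1.40 (SE 0.18, adjusted p = 5.8e-05 by edgeR). The ratio of CD276 to CD274 per length averaged 31.2 ± 3.37 in the KDM4A plasmid libraries and 34.4 ± 5.87 in the control plasmid libraries (SD, n = 3 each), which overlap.

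The CD274 promoter is shown because it was the only member window with a STAT site and IRF elements, the letters read by the factors of interferon signalling, which is known to induce CD274.
CD274, chr9:5450292-5450591, plus strand: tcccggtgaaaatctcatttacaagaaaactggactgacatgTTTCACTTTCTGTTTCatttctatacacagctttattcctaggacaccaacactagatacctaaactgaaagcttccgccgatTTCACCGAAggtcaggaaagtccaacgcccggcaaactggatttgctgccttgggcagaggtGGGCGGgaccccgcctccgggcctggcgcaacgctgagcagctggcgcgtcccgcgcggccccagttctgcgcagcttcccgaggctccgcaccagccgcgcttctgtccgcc
Capitals mark, from the left, 2 overlapping IRF elements on the opposite strand (208 and 202 bases before the start), a STAT site (125 bases before) and a GC box (63 bases before). Of 25 tested genes on a list of interferon-gamma signalling and other CD274 regulators, 14 were higher, 8 lower and 3 did not pass. Of all tested genes, 40.0% were higher and 38.6% lower. The list had a median log2 fold change of 0.22. IRF1, the factor that carries the interferon signal to CD274, was at 21.0, 20.2 and 18.9 CPM in the KDM4A plasmid libraries, against 4.27, 3.8 and 4.12 CPM in the control plasmid libraries (log2 fold change 2.30, SE 0.10, adjusted p = 8.3e-13 by edgeR). The receptor gene IFNGR1 rose by 2.08 and the feedback inhibitor SOCS3 by 2.42 on the log2 scale (SOCS3 by 1.73 with GC and length trends removed). JAK1 and JAK2 of the same list, named after their values were seen, were called lower, at -0.30 and -0.53. With GC and length trends removed, JAK1 stood at -0.10 and JAK2 at 0.12. CMTM6, which protects PD-L1 protein from breakdown, was at 138.8, 134.4 and 122.1 CPM in the KDM4A plasmid libraries, against 228.4, 238.8 and 251.2 CPM in the control plasmid libraries, a log2 fold change of -0.86 (SE 0.06). MYC and JUN, transcription factors reported to act on CD274, also fell, with log2 fold changes of -0.75 and -0.81.

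**Figure D2:**
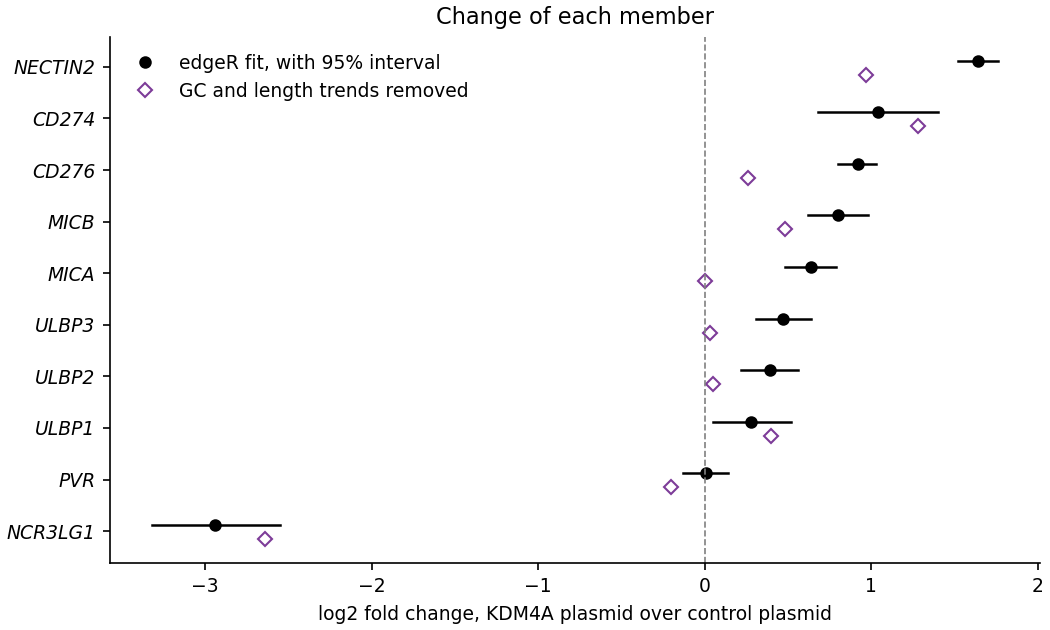
Log2 fold change of each gene, KDM4A plasmid over control plasmid; filled points and bars are the edgeR fit with its 95% interval, and open diamonds the same fit after trends over GC content and exon length were removed. NCR3LG1 stays lowest and NECTIN2, CD274, CD276, MICB and ULBP1 stay above 0 in both, while MICA, ULBP2 and ULBP3 move to near 0 and PVR to -0.20.

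Removal of per-library trends over GC content and exon length moved several of these values (a setting chosen after the data were seen). With it, 5 members were higher and 2 lower, while 33.8% of all tested genes were called higher and 44.6% lower, and their median log2 fold change was -0.11. NCR3LG1 (-2.64), NECTIN2 (0.97), CD274 (1.28), MICB (0.48) and CD276 (0.26) kept their calls, as did ULBP1 (0.40, adjusted p = 0.00279 by edgeR). MICA (-0.00024, adjusted p = 0.997 by edgeR), ULBP2 and ULBP3 no longer passed. PVR was then called lower, with a log2 fold change of -0.20 (adjusted p = 0.00119 by edgeR). Read against the median of -0.11, PVR stood at -0.09 and MICA, ULBP2 and ULBP3 at 0.11, 0.16 and 0.15. These relative values were not tested.

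**Figure D3:**
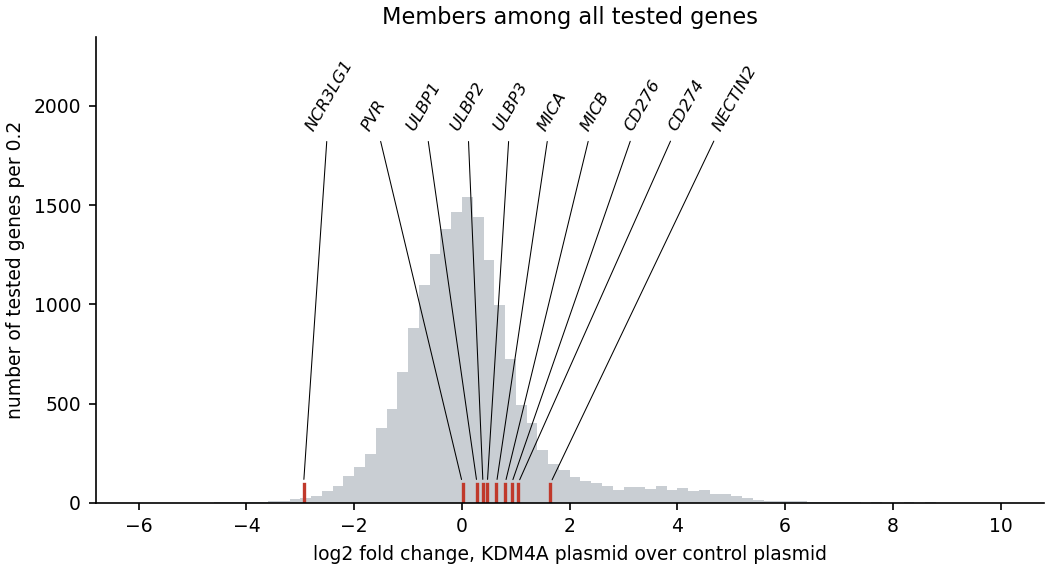
Number of tested genes per 0.2 of log2 fold change, KDM4A plasmid over control plasmid, with red ticks at the 10 ligand and checkpoint genes. NCR3LG1 lies in the thin lower tail at -2.94, and the other 9 lie between 0.01 and 1.64.

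Levels of different genes were compared per exon length as TPM, the length-scaled transcript share. On this scale the median of all tested genes was -0.31 (log2 ratio of the KDM4A plasmid over the control plasmid group), so single genes are read against that shift, against which NCR3LG1 stood at -2.95, NECTIN2 at 1.61, ULBP1 at 0.27 and PVR at -0.03. In the KDM4A plasmid libraries the order of mean TPM was NECTIN2 (66.8), CD276 (49.2), MICA (31), ULBP2 (20), ULBP3 (14.6), MICB (13), PVR (12.2), NCR3LG1 (3.78), ULBP1 (3.73) and CD274 (1.58). Neighbours in that order did not overlap except MICB with PVR and NCR3LG1 with ULBP1. In the control plasmid libraries the order was NCR3LG1 (36.3), CD276 (33.0), NECTIN2 (27.2), MICA (25.1), ULBP2 (19.5), PVR (15.5), ULBP3 (13.2), MICB (9.50), ULBP1 (3.84) and CD274 (0.979). Here NCR3LG1 overlapped CD276, NECTIN2 overlapped MICA and PVR overlapped ULBP3. NCR3LG1 made up 1.62%, 1.56% and 2.07% of the summed TPM of the 10 genes in the KDM4A plasmid libraries, against 18.8%, 23.2% and 16.7% in the control plasmid libraries. The 5 NKG2D ligands summed to 82.3 ± 1.67 TPM in the KDM4A plasmid libraries and 71.1 ± 3.53 TPM in the control plasmid libraries, and the DNAM-1 pair to 79.0 ± 4.91 and 42.6 ± 4.0 TPM (SD, n = 3 each). These sums were not adjusted for the shift of -0.31.

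**Figure D4:**
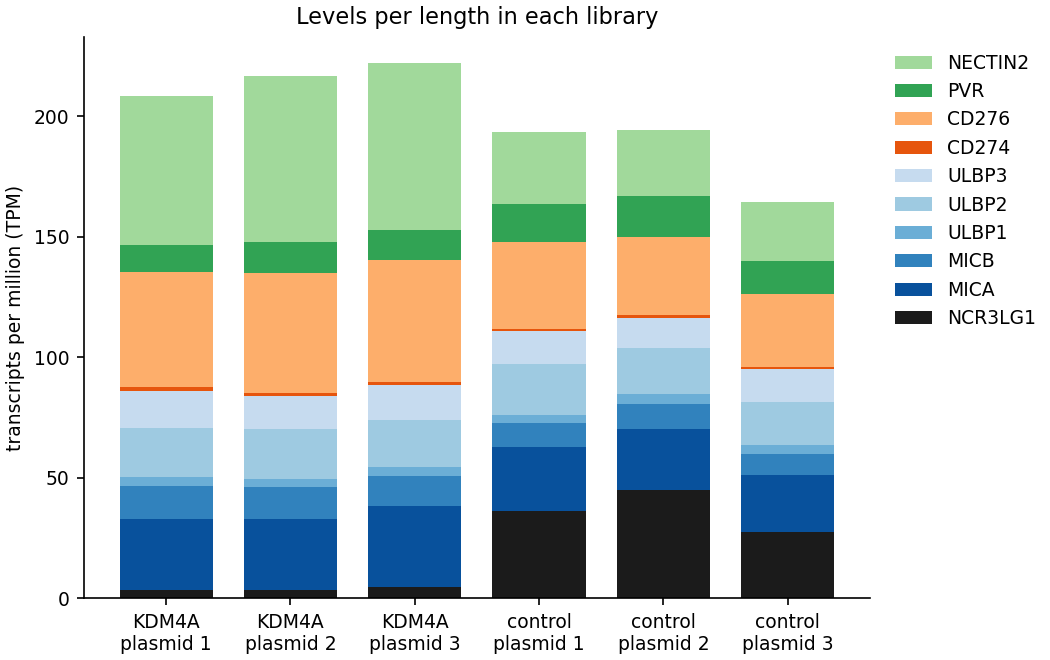
Stacked TPM of the 10 genes in each library, KDM4A plasmid libraries at the left and control plasmid libraries at the right. The black NCR3LG1 segment is 3.38 to 4.58 TPM in the KDM4A plasmid libraries and 27.5 to 45.1 TPM in the control plasmid libraries, and the light green NECTIN2 segment is 61.9 to 69.3 TPM and 24.6 to 29.8 TPM.

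Genes next to the members did not all move with them. The 24 tested neighbours of NCR3LG1 within 1 Mb had a median log2 fold change of -0.05, with 8 higher and 8 lower. The 20 tested neighbours of the ULBP cluster had a median of -0.39, with 5 higher and 13 lower, where the 3 ULBP genes had positive values. The 17 neighbours of CD274 had a median of -0.35 and the 19 of CD276 a median of 0.11. Near MICA and MICB, in the gene-dense MHC, the medians were 0.49 and 0.48 over 83 and 82 genes, in windows that overlap for most of their length. Near PVR and NECTIN2 they were 0.49 and 0.49 over 56 and 65 genes, windows that overlap each other. Of all tested genes, 40.0% were called higher and 38.6% lower. The values of the neighbours are descriptions with no test.

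Other ligands and adhesion partners of NK receptors changed in both directions. The list holds ligands of activating receptors but is not confined to them, and it was not sorted by the kind of receptor bound. CLEC2D (log2 fold change -0.73, and -0.18 with GC and length trends removed) and PCNA (0.59 and 0.32), for example, are known for binding inhibitory receptors. Both were named after their values were seen. Of 14 tested genes of this list of 19, 9 were higher and 5 lower, beside 40.0% and 38.6% of all tested genes. The median log2 fold change of the list was 0.77, which is the same with RAET1E at its lower bound. After removal of GC and length trends, 7 were higher and 5 lower, beside 33.8% and 44.6% of all tested genes. ICAM1, the adhesion ligand of LFA-1, was at 105.8, 110.9 and 103.9 CPM in the KDM4A plasmid libraries, against 2.48, 2.71 and 2.63 CPM in the control plasmid libraries (log2 fold change 5.35, SE 0.08, adjusted p = 8.4e-19 by edgeR). CD58, the ligand of CD2, rose by 1.52 on the log2 scale. CD70, the ligand of CD27, had a log2 fold change of -1.49 (-2.33 with GC and length trends removed). The nectin NECTIN3 had one of -1.38 (-0.87 with that removal). KMT2E, a splice form of which binds NKp44, had one of -0.87 (-0.31 with that removal), where SRPK2 overlaps on the opposite strand. BAG6, a further NKp30 ligand that was named after its values were seen, averaged 140.9 ± 9.46 CPM in the KDM4A plasmid group and 107.0 ± 8.52 CPM in the control plasmid group (SD, n = 3 each). Its log2 fold change was 0.40 with an SE of 0.07 (adjusted p = 2.5e-05 by edgeR), and it turned to -0.17 with GC and length trends removed. A direction opposite to that of NCR3LG1 therefore held only without that removal.

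Of 17 tested genes on a list of 26 other inhibitory and costimulatory ligands, 11 were higher, 4 lower and 2 did not pass. Of all tested genes, 40.0% were higher and 38.6% lower. The list had a median log2 fold change of 1.39. VSIR (VISTA, an inhibitory B7-related protein) averaged 9.04 ± 1.25 CPM in the KDM4A plasmid group and 0.275 ± 0.0366 CPM in the control plasmid group (SD, n = 3 each; log2 fold change 5.01, SE 0.22). The control level of VSIR rests on 17 counts, and it lies within CDH23 on the opposite strand, which had 77 counts in the KDM4A plasmid group and 268 in the control plasmid group. LGALS3, a galectin, rose by 4.57, and CEACAM1, a ligand of inhibitory receptors, by 4.51 on the log2 scale. BTN2A2, a butyrophilin, fell by 0.87, the T-cell costimulator TNFSF4 fell by 1.27 and CD24, a ligand of SIGLEC10, fell by 0.88. Named after their values were seen, HLA-E, the ligand of the inhibitory receptor NKG2A, rose by 0.62 (adjusted p = 9.5e-09 by edgeR), and CD47, which signals to macrophages, had a log2 fold change of 0.02 (adjusted p = 0.711 by edgeR). With GC and length trends removed, HLA-E stood at 0.14 and CD47 at 0.56. PD-L2 (PDCD1LG2), VTCN1, CD80, CD86 and IDO1 had too few counts to be tested.

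A list of proteases that can release NKG2D ligands from the cell surface, with their partners and the inhibitors TIMP1 and TIMP3, changed in both directions. Of its 11 tested genes, 7 were higher, 2 lower and 2 did not pass, beside 40.0% higher and 38.6% lower of all tested genes, with a median log2 fold change of 0.56. After removal of GC and length trends, 9 were higher and 1 lower, beside 33.8% and 44.6% of all tested genes. The membrane protease MMP14 rose by 1.99 and the metalloprotease inhibitor TIMP1 by 1.86 on the log2 scale (TIMP1 by 1.09 with GC and length trends removed). MMP7 had 200 counts in the KDM4A plasmid group and 2 in the control plasmid group, a ratio of 109.3 (95% exact binomial interval 29.9 to 909.0, counting error only). MMP2 had a log2 fold change of -1.22. ADAM10, a sheddase named after its values were seen, rose by 0.55 (1.47 with GC and length trends removed). ADAM17, another sheddase of NKG2D ligands, which overlaps IAH1 on the opposite strand, had a log2 fold change of -0.21 (adjusted p = 0.00688 by edgeR), a call that was lost without KDM4A plasmid replicate 3 (-0.16) and turned to 0.23 with GC and length trends removed.

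Factors reported to act on NKG2D ligand genes or NCR3LG1 changed in both directions, with a median log2 fold change of -0.15. Of 27, 13 were lower, 7 higher and 7 did not pass, beside 38.6% lower and 40.0% higher of all tested genes. With GC and length trends removed, 17 were lower and 5 higher, beside 44.6% and 33.8% of all tested genes. ATM, the DNA damage kinase upstream of NKG2D ligand induction, averaged 49.8 ± 1.57 CPM in the KDM4A plasmid group and 139.8 ± 17.8 CPM in the control plasmid group (SD, n = 3 each; log2 fold change -1.49, SE 0.08). DICER1, whose loss is known to raise MICA and MICB, fell by 1.37 on the log2 scale, and the RNA-binding protein gene IGF2BP1 fell by 1.23. With GC and length trends removed, ATM stood at -0.54 and DICER1 at -0.53. MYC, reported to drive NCR3LG1 in tumour cells, averaged 195.1 ± 4.37 CPM in the KDM4A plasmid group and 327.3 ± 14.6 CPM in the control plasmid group (SD, n = 3 each). JUND rose by 1.73, a call that was lost with GC and length trends removed (0.71, adjusted p = 0.101 by edgeR), and NFKB1 rose by 0.82.

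**Figure D5:**
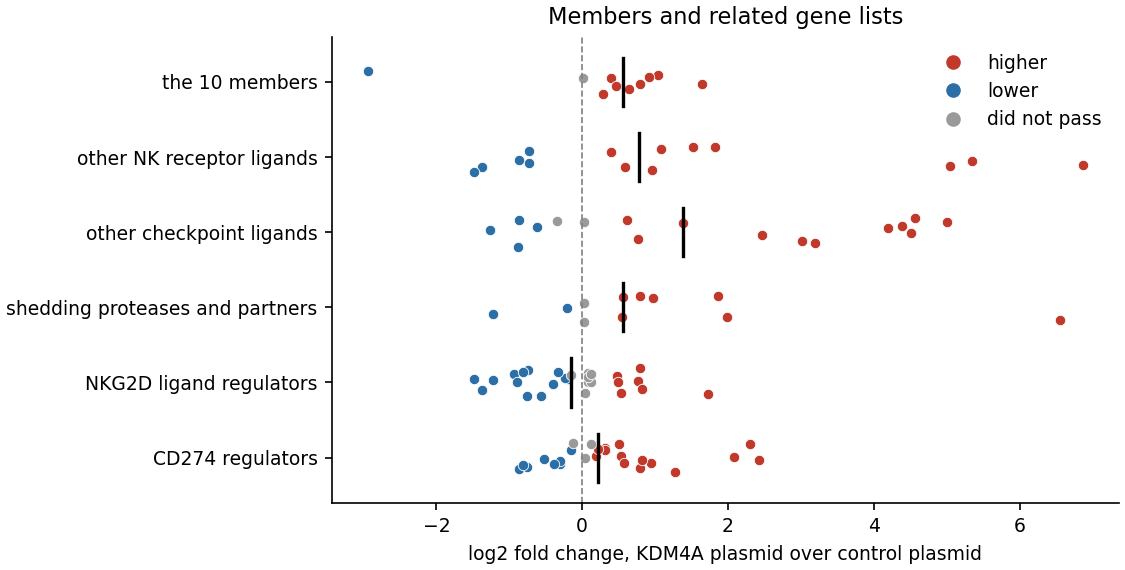
Log2 fold change (KDM4A plasmid over control plasmid) of the 10 genes and of the tested genes of 5 related lists; each point is a gene, coloured by its call, and the black bars are medians. The medians run from -0.15 (NKG2D ligand regulators) to 1.39 (other checkpoint ligands), NCR3LG1 is the lowest point, and the highest point is RAET1E, whose fitted value rests on 0 control counts.

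Receptors of NK and T cells were nearly absent, with 21 of 24 leukocyte genes under 1 CPM on average and NCR2 and KLRB1 at 0 counts everywhere. Summed over the list, the level was 10.6 to 12.7 CPM in the KDM4A plasmid libraries, against 3.46 to 4.64 CPM in the control plasmid libraries, and the pan-leukocyte gene PTPRC had 4 and 15 counts in the 2 groups. PDCD1, the gene of the PD-1 receptor that binds CD274, made up most of this difference, at 4.94, 6.73 and 6.20 CPM in the KDM4A plasmid libraries, against 0.106, 0.0493 and 0.0876 CPM in the control plasmid libraries (log2 fold change 6.11, SE 0.30, adjusted p = 4.4e-12 by edgeR). Its control level rests on 5 counts. CD14 averaged 2.32 CPM in the KDM4A plasmid group and 0.635 CPM in the control plasmid group. Of 12 stromal markers 6 could be tested, with 2 higher, 2 lower and 2 that did not pass, beside 40.0% higher and 38.6% lower of all tested genes. The summed level of the 12 was 18.7 to 20.2 CPM in the KDM4A plasmid libraries, against 22.9 to 23.2 CPM in the control plasmid libraries.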

How the data were processed

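RNA was measured as mRNA sequencing libraries from Trizol-extracted total RNA, per the labels' protocols. The authors deposited a table of unnormalised counts for 60664 genes, which per the file headers also gives the exon length of each gene and its location (GRCh38.p13). HISAT2, HTSeq and the GRCh38 build are named in the submitters' processing notes, without versions or a strand setting; with no known strand setting, reads of overlapping opposite-strand genes cannot be told apart. Every column was matched to its sample by name, with 0 left unmatched.

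From the deposited counts, filterByExpr (minimum count 10) kept 17147 genes. The test was edgeR 4.0.16's quasi-likelihood test with TMM factors and robust estimation in R 4.3.3, on 3 against 3 libraries without covariates, adjusted over all tested genes. Positive log2 fold changes mean higher with the KDM4A plasmid. SE is the log2 fold change divided by the root of its F statistic, and 95% intervals are 1.96 SE either way. The fit was also run on simulated data in which few genes changed, in equal numbers up and down, while 78.6% of tested genes were called here. That run therefore cannot speak for the scaling or the error rate in data like these. Shared sequence was counted as 50-base words in GENCODE release 29 transcripts. Promoter sequences are RefSeq's, and all 10 members matched.

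The members, lists and motifs were chosen with earlier results of these data known. Beside the members, the genes named were the 3 largest rises and falls of each list that passed and averaged at least 1 CPM, the 3 highest markers, and the 3 genes nearest to NCR3LG1. Exceptions are stated, and a few genes that this rule selects are not reported here. Alternatives were DESeq2 1.42.0, limma-voom (limma 3.58.1), RLE, upper-quartile or no composition factors, no or a stricter filter, library sizes without mitochondrial genes and KDM4A, no robust estimation, a test against 1.2-fold, a replicate block, each library left out and, added later, GC and length trends removed by loess.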

Additional observations from a re-analysis of the deposited data

How the results depend on the processing

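Of 18 alternatives, NCR3LG1, MICB, CD274, CD276 and NECTIN2 kept their direction and call in all 18, over ranges of -3.09 to -2.64, 0.48 to 0.85, 0.92 to 1.28, 0.26 to 0.95 and 0.97 to 1.69 on the log2 scale. MICA, ULBP2, ULBP3 and PVR changed with 1 setting, the removal of GC content and length trends, to -0.00024, 0.05, 0.03 and -0.20, and the members called higher and lower were then 5 and 2, beside 33.8% and 44.6% of all tested genes; the cause was not tested. The log2 fold change of ULBP1 was no longer called with DESeq2 (0.28), no composition factor (0.24), a test against 1.2-fold (0.28), no filter (0.28) and the replicate block (0.29, adjusted p = 0.0520), and lay between 0.21 and 0.33 with single libraries left out, losing its call in 4 of those 6 fits. Replicate numbers did not pair the libraries (correlations of same-numbered deviations of -0.148, 0.0338 and -0.0913), and the block changed no other member's call. Of the shedding genes, 1 was called lower, in place of 2, in the test against 1.2-fold, with GC and length trends removed and with single libraries left out (1 to 2). Of the CD274 regulators, 5 were called lower in the test against 1.2-fold. Of 29 list genes that the naming rule picked, 27 kept their call in every alternative. The exceptions were JUND (0.71 with GC and length trends removed) and ADAM17 (0.23 in that setting, and called in neither the test against 1.2-fold nor the fit without KDM4A plasmid replicate 3). Genes named outside the rule are not in that count. With GC and length trends removed, BAG6 (-0.17), HSF1 (-0.14) and JAK2 (0.12) turned direction, and CD47 moved from 0.02 to 0.56. In that setting HLA-E, ADAM10, RAET1E, RAET1G, PCNA, CLEC2D, JAK1 and HSPA1A kept their direction. Without length scaling, 6 of 10 members kept their rank in the KDM4A plasmid group and 5 of 10 in the control plasmid group. Low counts limit the precision of CD274 (171 and 94 counts) and of the genes whose control level rests on 7 counts or fewer.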
